A study of Oryctolagus cuniculus with 12 samples.

Results

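The genes described here make and organise the hyaluronan matrix of loose connective tissue, together with the main small proteoglycans of collagen fibrils. They were 10 of the 20566 genes listed for rabbit conjunctiva, and were taken by their gene symbols. They comprised the hyaluronan synthases HAS1, HAS2, and HAS3, the hyaluronan receptor CD44, the matrix cross-linking genes TNFAIP6 and PTX3, the large proteoglycan VCAN (versican), and the small proteoglycans DCN (decorin), LUM (lumican), and BGN (biglycan). All 10 passed the filter on low counts, which kept 14835 genes.

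RNA was sequenced from conjunctiva of female Japanese white rabbits in 12 libraries, 3 in each of 4 groups. The groups TL3h, TL3d, and TL14d were right eyes collected 3 hours, 3 days, or 14 days following trabeculectomy, a glaucoma operation that leads aqueous humor through a flap of sclera to a bleb below the conjunctiva. The drug mitomycin C, an alkylating agent that limits scarring, was applied in these operations. The study's account of the operation also names an injection of the glucocorticoid betamethasone and an antibiotic ointment at its end. Surgery and these drugs cannot be told apart. The control group was conjunctiva of left eyes, on which no surgery was done. An age is stated for the rabbits of the study itself, but it took the trabeculectomy libraries from earlier work, and the labels give no age. The operated eye to which each control eye belongs is not given either. A legend of the study describes the expression values as averages over separate eyes. As only right eyes were operated on, the operated libraries of a group then came from different rabbits, while the animals of the control libraries are not given one by one. The p-values measure the spread between these libraries.

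Hyaluronan is a long sugar chain that the synthases spin out at the cell surface from 2 activated sugars, UDP-glucuronic acid and UDP-N-acetylglucosamine. TNFAIP6, also called TSG-6, transfers protein heavy chains onto hyaluronan, and PTX3, a secreted pentraxin, binds these heavy chains and helps to cross-link the matrix. Versican carries chondroitin sulfate and binds hyaluronan at one end, and CD44 anchors the matrix to cells. Decorin, lumican, and biglycan carry short protein cores that bind collagen or growth factors, and decorin and lumican regulate the thickness of collagen fibrils. Such matrices are known for swelling wounded tissue early and for giving way to collagen later.

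Libraries held between 27111348 and 38591425 counts in total. Levels are CPM, the count scaled to a library size of 1000000 after TMM adjustment. The upper limit that a count of 0 leaves, 3 counts, corresponded to 0.0712 to 0.124 CPM. These limits cover counting error only. Fold changes are on the log2 scale from edgeR's quasi-likelihood test, with p-values adjusted by Benjamini-Hochberg over the 14835 genes and a threshold of 0.05. Across genes, TL14d replicate 1 correlated more closely with the control libraries (mean r = 0.959) than with the other TL14d libraries (mean r = 0.883). Control replicate 3 had a higher summed level of 10 fibroblast and stroma markers than the other control libraries, 70117 CPM, against 11273 and 33339 CPM. The results at 14 days, and those of the proteoglycans, are also given without one or both of these libraries.

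Bulk tissue was measured, and fewer cells of a type and less RNA per cell cannot be told apart. The summed stroma markers lay between 97988 and 112757 CPM in TL3h, between 1256 and 61427 CPM in TL3d, and between 10812 and 54841 CPM in TL14d. COL1A1, COL1A2, and COL3A1 gave most of this sum in TL3h. There, these 3 of the 10 markers lay above all control libraries, and the other 7 overlapped. In TL3d, 1 marker lay below all control libraries and 9 overlapped, and in TL14d all 10 overlapped. The summed level of 8 epithelial markers lay between 6922 and 14454 CPM in control, 5582 and 9276 CPM in TL3h, 8212 and 19562 CPM in TL3d, and 12264 and 16300 CPM in TL14d. The 6 endothelial markers summed to 67.4 to 290 CPM in control, 630 to 1249 CPM in TL3h, 300 to 559 CPM in TL3d, and 90 to 290 CPM in TL14d. PECAM1 gave most of this sum in TL3h, where 3 of the 6 markers lay above all control libraries and the other 3, KDR, TEK, and VWF, overlapped. No stroma, epithelial, or endothelial marker was at or under 3 counts in any library. The 10 leukocyte markers measured summed to 72.5 to 371 CPM in control, 1147 to 2765 CPM in TL3h, 1215 to 1493 CPM in TL3d, and 84.4 to 503 CPM in TL14d. Skeletal muscle markers reached 353 CPM in control replicate 2 and 440 CPM in TL3d replicate 3, and 8.53 CPM at most elsewhere. What part these marker levels had in the changes of CPM against control was not tested.

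At 3 hours after surgery, 6 of the 10 genes rose against control. They were all 3 synthases, CD44, TNFAIP6, and PTX3, and no gene fell. The smallest of these changes was that of CD44, 4.76-fold, and the largest was that of PTX3, 388-fold. VCAN, DCN, LUM, and BGN did not pass the test. Of all genes tested, 45.4% passed in this comparison, 23.2% with a rise. By CPM with TMM, the TL3h libraries lay above all control libraries in 8 of the 10 genes. The libraries of 57.3% of all genes did not overlap, in either direction. The 10 genes had a median log2 fold change of 3.39, against 0.02 over all genes tested. With scaling by library size only, where the all-gene median was -0.47, the count of genes past the threshold was again 6, and 12.7% of all genes rose and 38.2% fell, against 23.2% and 22.2% with TMM.

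**Figure D1:**
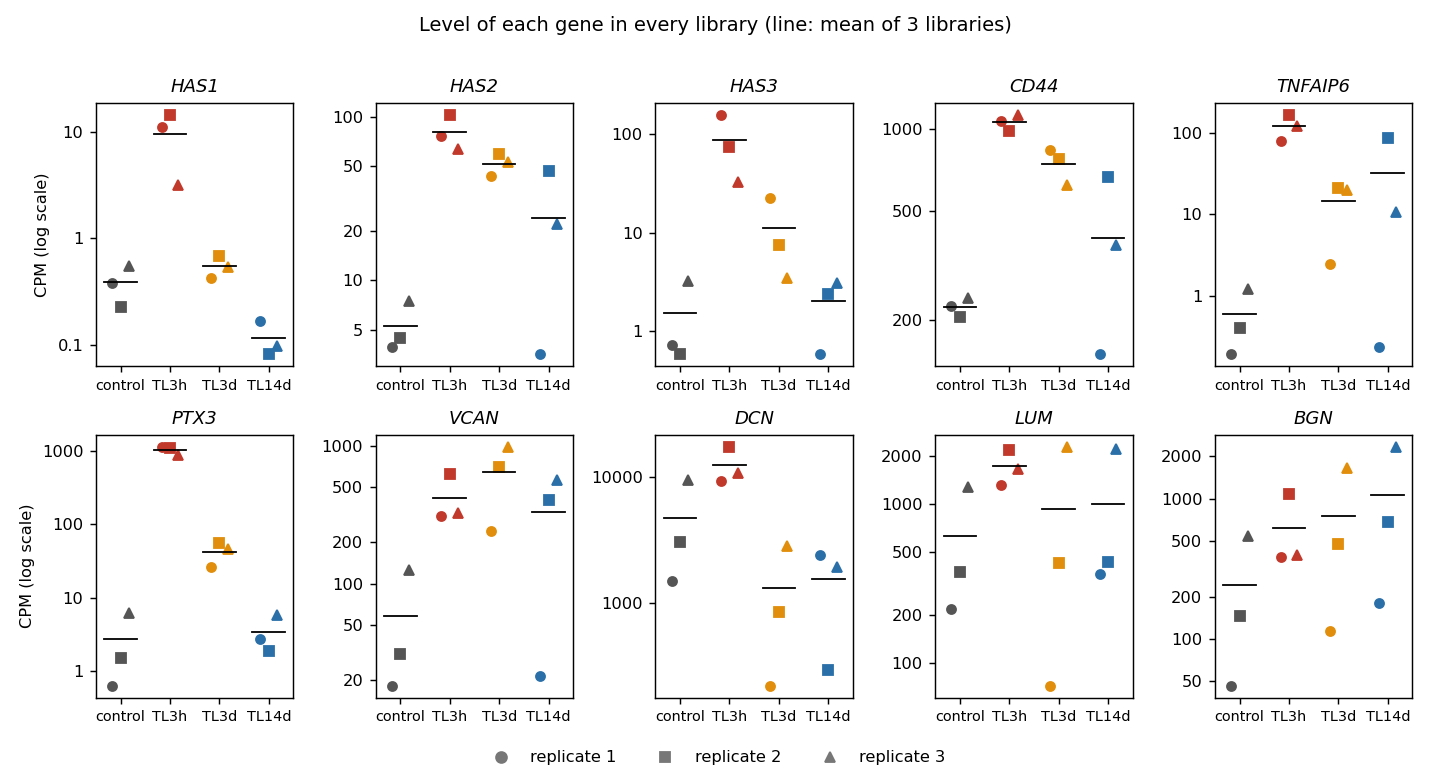
Level of each of the 10 genes in CPM (vertical log axis) in every library of the 4 groups, with the replicate number as the symbol and the mean of 3 libraries as a line. PTX3 lay between 897 and 1165 CPM in TL3h and at or under 6.04 CPM in control, and TL14d replicate 1 (blue circle) lay far under the other TL14d libraries for HAS2, CD44, TNFAIP6, and VCAN.

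HAS1, a synthase, was low in the control eyes. It was measured at 0.380, 0.225, and 0.552 CPM in control replicates 1, 2, and 3, and at 11.2, 14.3, and 3.15 CPM in TL3h. The lowest TL3h library was still above every control library. The increase was 4.62 ± 0.60 (log2, SE; adjusted p = 0.000259, edgeR), or 24.5-fold.

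HAS2, the synthase of long hyaluronan chains in most connective tissues, was measured at 3.92, 4.43, and 7.50 CPM in control and at 77.0, 103, and 63.4 CPM in TL3h. The groups did not overlap, and the increase was 3.94 ± 0.74 (adjusted p = 0.00182, edgeR). HAS3, the third synthase, was measured at 0.712, 0.575, and 3.24 CPM in control and at 158, 74.6, and 32.5 CPM in TL3h. Its increase was 5.87 ± 1.10 (adjusted p = 0.00183, edgeR), and it was 7.03 without control replicate 3, the control library with the highest level, and 5.11 without TL3h replicate 1.

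CD44, which is made by many cell types including leukocytes, was already at 224, 204, and 241 CPM in control and reached 1073, 983, and 1128 CPM in TL3h. Both groups were narrow, and the increase was 2.25 ± 0.42 (adjusted p = 0.00188, edgeR).

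TNFAIP6 was low in the control eyes. Control libraries held 8, 16, and 48 counts, or 0.190, 0.400, and 1.2 CPM, and TL3h libraries were at 79.7, 166, and 122 CPM. The increase was 7.68 ± 1.81 (adjusted p = 0.00627, edgeR), or 8.64 without control replicate 3. PTX3 rose from 0.617, 1.48, and 6.04 CPM in control to 1165, 1098, and 897 CPM in TL3h. Its increase was 8.60 ± 0.95 (adjusted p = 0.000112, edgeR), or 9.92 without control replicate 3. By FPKM, which is scaled to transcript length, PTX3 took rank 192 to 233 among all genes of the 3 TL3h libraries and rank 10238 to 13068 in control. When each of the 12 libraries was left out in turn, all 6 genes passed in every fit, with adjusted p-values of at most 0.0303 (edgeR).

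VCAN missed the threshold at 3 hours. Its control libraries were at 18.2, 30.9, and 126 CPM and its TL3h libraries at 312, 619, and 324 CPM. The groups did not overlap, and the difference was 2.84 ± 1.08 (adjusted p = 0.0529, edgeR). When 1 library was left out the adjusted p ranged up to 0.154, without control replicate 2. It passed without control replicate 3 (4.04, adjusted p = 0.0240, edgeR), without TL14d replicate 1 (adjusted p = 0.0137, edgeR), and with DESeq2 (2.80, adjusted p = 0.00751).

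The small proteoglycans varied widely among the control eyes. DCN was at 1499, 3061, and 9563 CPM in control replicates 1, 2, and 3, LUM at 217, 374, and 1281 CPM, and BGN at 46.5, 145, and 539 CPM. All 3 genes, and VCAN, were lowest in control replicate 1 and highest in control replicate 3, as was the summed level of the stroma markers. In TL3h, DCN was at 9318, 17662, and 10917 CPM, LUM at 1318, 2166, and 1659 CPM, and BGN at 382, 1080, and 397 CPM. The log2 differences from control were 1.42 ± 1.0 for DCN, 1.46 ± 1.13 for LUM, and 1.35 ± 1.16 for BGN, with adjusted p-values (edgeR) of 0.276, 0.325, and 0.380. LUM alone of these 3 genes had no overlap of libraries by CPM, by a small margin (1318 CPM in TL3h replicate 1, 1281 CPM in control replicate 3). By FPKM, LUM overlapped as well, at 503 in TL3h replicate 1 and 650 in control replicate 3. Without control replicate 3 the differences were 2.42 for DCN, 2.48 for LUM, and 2.65 for BGN, and none passed (adjusted p from 0.107 to 0.148, edgeR).

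**Figure D2:**
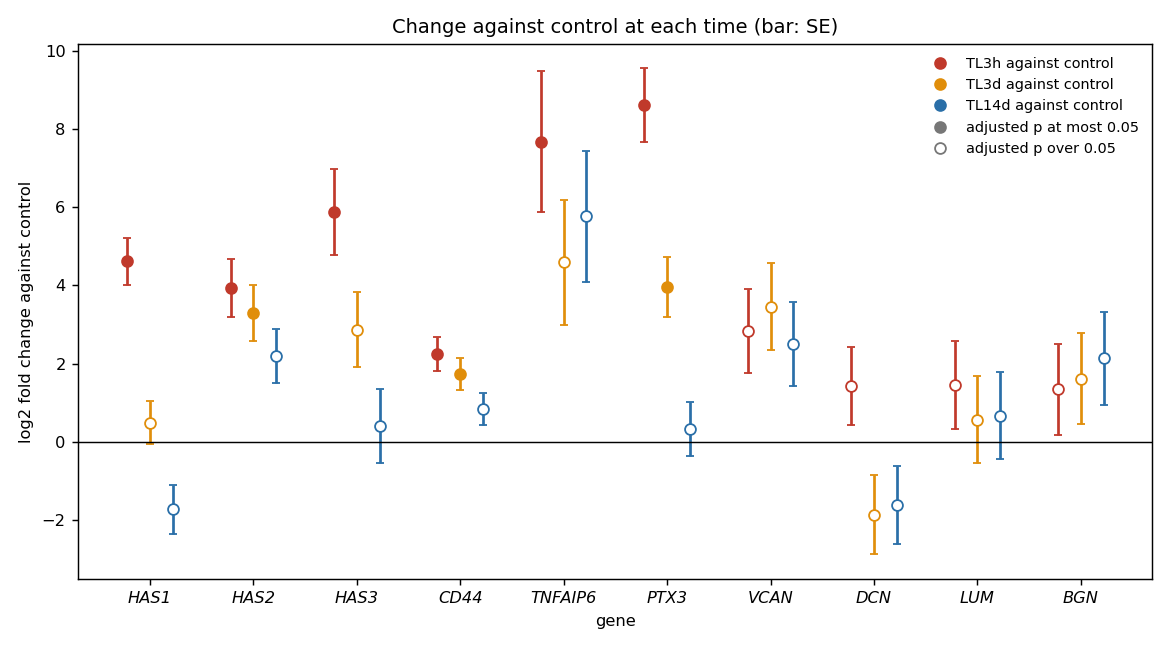
Log2 fold change against control of each of the 10 genes in TL3h, TL3d, and TL14d (vertical axis), with the SE as bars. Filled points had an adjusted p of at most 0.05 in edgeR's quasi-likelihood test, which was the case for 6 genes at 3 hours, 3 genes at 3 days, and no gene at 14 days.

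At 3 days after surgery, HAS2, CD44, and PTX3 were higher than in control, and no gene of the 10 had fallen. Of all genes tested, 17.6% passed in this comparison, 10.6% with a rise, against 3 of the 10 genes here. In 6 of the 10 genes the TL3d libraries lay above all control libraries, where 45.5% of all genes had no overlap, in either direction. The median log2 fold change was 2.31, against 0.00 over all genes tested.

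HAS2 was at 43.5, 59.1, and 52.8 CPM in TL3d, all above the control libraries. The increase was 3.29 ± 0.71 (adjusted p = 0.0179, edgeR). The adjusted p was 0.0696 and 0.0681 without control replicates 1 and 2, and 0.0512 and 0.0594 without TL3d replicates 1 and 2. CD44 was at 840, 777, and 622 CPM, an increase of 1.74 ± 0.42 (adjusted p = 0.0229, edgeR). Its adjusted p rose to 0.0773 and 0.0805 without control replicates 1 and 2, and to 0.0723 and 0.0716 without TL3d replicates 1 and 2. PTX3 was at 26.4, 55.3, and 45.7 CPM, an increase of 3.97 ± 0.77 (adjusted p = 0.0142, edgeR). That call was lost without control replicate 2 (adjusted p = 0.0570) and without TL3d replicate 2 (adjusted p = 0.0516), and the increase was 5.33 without control replicate 3.

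HAS1 was back at 0.425, 0.678, and 0.541 CPM, which overlapped with control (0.50 ± 0.55, adjusted p = 0.542, edgeR). HAS3 was at 22.3, 7.39, and 3.44 CPM, all above control, with a difference of 2.87 ± 0.97 (adjusted p = 0.0642, edgeR). The HAS3 difference passed without control replicate 3 (4.07, adjusted p = 0.0394, edgeR), without TL3d replicate 3 (adjusted p = 0.0492), and without TL14d replicate 1 (adjusted p = 0.0484), and it was 1.84 without TL3d replicate 1 (adjusted p = 0.228). TNFAIP6 was at 2.42, 21.2, and 19.8 CPM, also all above control, with a difference of 4.59 ± 1.60 (adjusted p = 0.0706, edgeR). It passed without TL14d replicate 1 (adjusted p = 0.0174, edgeR), without TL14d replicate 2 (adjusted p = 0.0380), and with DESeq2 (adjusted p = 0.00224), and the adjusted p ranged up to 0.184, without control replicate 1.

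VCAN had its highest group mean of the series at this time, with libraries at 240, 702, and 984 CPM, of which the lowest lay under all TL3h libraries. The difference from control was 3.46 ± 1.10, just short of the threshold (adjusted p = 0.0555, edgeR). It passed without control replicate 3 (4.69, adjusted p = 0.0402, edgeR), without TL14d replicate 1 (adjusted p = 0.0146), and with DESeq2 (adjusted p = 0.00213), and the adjusted p ranged up to 0.156, without control replicate 2.

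DCN was at 216, 843, and 2834 CPM in TL3d, LUM at 71.7, 422, and 2286 CPM, and BGN at 114, 473, and 1661 CPM. Within each gene the highest TL3d library exceeded the lowest by more than 10-fold, in the order of the summed stroma markers, which were 1256, 10980, and 61427 CPM in replicates 1, 2, and 3. None of the 3 genes passed the test against control. The log2 differences were -1.86 ± 1.01 for DCN, 0.57 ± 1.11 for LUM, and 1.62 ± 1.17 for BGN, with adjusted p-values (edgeR) of 0.209, 0.742, and 0.342. Without control replicate 3 they were -0.83, 1.63, and 2.95, with adjusted p-values of 0.590, 0.377, and 0.153. When each of the 12 libraries was left out in turn, DCN ranged from -3.15 to -0.83. LUM then ranged from -1.34 to 1.63 and BGN from 0.27 to 2.95, and none passed.

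Between 3 hours and 3 days, 4 of the 10 genes fell, which were HAS1, HAS3, PTX3, and DCN, and no gene rose. Of all genes tested, 37.3% passed in this comparison, 19% with a fall. With scaling by library size only, which moved the all-gene median from -0.05 to 0.43 (log2), 8.31% of all genes fell and 34.2% rose, and the count of the 10 genes was again 4. By CPM with TMM, the TL3d libraries lay below all TL3h libraries in 7 of the 10 genes. Of all genes, 54.7% had no overlap, in either direction. HAS1 changed by -4.12 ± 0.59 (adjusted p = 0.000541, edgeR), HAS3 by -3.00 ± 0.95 (adjusted p = 0.0316), PTX3 by -4.63 ± 0.79 (adjusted p = 0.00144), and DCN by -3.28 ± 1.07 (adjusted p = 0.0350). HAS2 changed by -0.65 ± 0.65 (adjusted p = 0.462, edgeR) and CD44 by -0.51 ± 0.40 (adjusted p = 0.349). The TL3d libraries of both lay below all TL3h libraries by CPM with TMM. By the authors' FPKM they overlapped, at 14.7 to 22.8 in TL3h and 14.0 to 19.1 in TL3d for HAS2. For CD44 the FPKM ranges were 116 to 140 and 103 to 144. With scaling by library size only, the adjusted p was 0.852 for HAS2 and 0.962 for CD44 (edgeR). TNFAIP6 was lower by -3.08 ± 1.43 without overlap of libraries but did not pass (adjusted p = 0.115, edgeR), while it passed with DESeq2 (adjusted p = 0.0351), with only the groups compared (adjusted p = 0.0242), and without TL14d replicate 1 (adjusted p = 0.0323). The differences of VCAN (0.62 ± 1.01), LUM (-0.89 ± 1.11), and BGN (0.27 ± 1.14) did not pass. The calls of HAS1 and PTX3 held when any of the 12 libraries was left out.

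The HAS3 fall was lost without TL3h replicate 1 (-2.24, adjusted p = 0.111, edgeR), TL3h replicate 2 (adjusted p = 0.0575), TL3d replicate 2 (adjusted p = 0.108), or TL3d replicate 3 (adjusted p = 0.0823). It was -4.02 without TL3d replicate 1. The DCN fall was lost without TL3h replicate 1 (adjusted p = 0.0538, edgeR), TL3h replicate 2 (adjusted p = 0.0861), TL3h replicate 3 (adjusted p = 0.0622), TL3d replicate 1 (adjusted p = 0.0812), or TL3d replicate 2 (adjusted p = 0.115). It was -4.57 without TL3d replicate 3. The summed stroma markers of the TL3d libraries also lay under all TL3h libraries, as did 7 of the 10 markers taken singly, while the other 3, COL6A3, PDGFRB, and DPT, overlapped. The FPKM ratio of DCN to COL1A2, one of these markers, overlapped between TL3h (0.634 to 1.15) and TL3d (0.340 to 1.24).

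At 14 days after surgery, no gene of the 10 passed the test against control, and 0% of all genes did (1538 genes had an unadjusted p under 0.05, and DESeq2 called 367). An unadjusted p under 0.05 was found for 4 of the 10 genes, and DESeq2 called 2 of them. The TL14d libraries did not overlap with control in 1 of the 10 genes, HAS1, where 11.1% of all genes had no overlap. The median log2 fold change was 0.76, against 0.02 over all genes tested.

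The TL14d libraries were split for several genes. HAS2 was at 3.53 CPM in replicate 1 and at 46.8 and 22.2 CPM in replicates 2 and 3. CD44 was at 149, 670, and 376 CPM, TNFAIP6 at 0.235, 86.9, and 10.6 CPM, and VCAN at 21.4, 406, and 566 CPM. In all 4 genes, replicate 1 lay within or under the control range and replicates 2 and 3 lay above it. The log2 differences from control were 2.20 ± 0.69 for HAS2 (adjusted p = 0.367, edgeR), 0.84 ± 0.41 for CD44 (adjusted p = 0.513), 5.77 ± 1.67 for TNFAIP6 (adjusted p = 0.346), and 2.51 ± 1.06 for VCAN (adjusted p = 0.464). Without TL14d replicate 1, HAS2 (2.71, adjusted p = 0.0102, edgeR), CD44 (1.23, adjusted p = 0.0253), and TNFAIP6 (6.35, adjusted p = 0.0251) passed, and 716 of 15114 genes tested did so in that fit. VCAN did not pass there (3.06, adjusted p = 0.0700, edgeR). Without both that library and control replicate 3, a choice made after seeing the data, VCAN passed as well (4.29, adjusted p = 0.0204, edgeR), as did 999 of 15056 genes tested. Without TL14d replicate 2 the values were 1.29 for HAS2, 0.24 for CD44, 3.18 for TNFAIP6, and 2.33 for VCAN, and none passed (adjusted p from 0.978 to 0.988, edgeR).

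HAS1 was at 0.168, 0.0815, and 0.0977 CPM in TL14d, which rested on 5, 3, and 3 counts. It was below all control libraries by -1.72 ± 0.62 (adjusted p = 0.412, edgeR). PTX3 had returned to 2.69, 1.85, and 5.73 CPM, within the control range, and was lower than in TL3d by -3.63 ± 0.76 (adjusted p = 0.0436, edgeR). It was the only gene of the 10 that passed between 3 and 14 days, where 2.24% of all genes passed, 1.59% with a fall. That call held in 2 of the 12 fits that left out 1 library, without control replicate 1 or without control replicate 3, and the adjusted p of the other fits ranged up to 0.137. In 3 of the 10 genes, HAS1, HAS3, and PTX3, the TL14d libraries lay below all TL3d libraries. Of all genes, 27.4% had no overlap, in either direction. HAS3 was at 0.572, 2.36, and 3.06 CPM. Without TL14d replicate 1 the differences from control were -2.07 for HAS1, 0.85 for HAS3, and 0.48 for PTX3, none of which passed (adjusted p from 0.148 to 0.765, edgeR).

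DCN was at 2419, 291, and 1931 CPM in TL14d, LUM at 361, 433, and 2203 CPM, and BGN at 181, 682, and 2351 CPM. Their log2 differences from control were -1.61 ± 1.0, 0.68 ± 1.11, and 2.14 ± 1.19, none of which passed the test (adjusted p from 0.567 to 0.860, edgeR). Without TL14d replicate 1 they were -2.08, 1.08, and 2.64 (adjusted p from 0.234 to 0.634, edgeR), and without control replicate 3 they were -0.57, 1.74, and 3.47 (adjusted p from 0.441 to 0.866). The lowest values with any 1 of the 12 libraries left out were -2.08 for DCN, -0.65 for LUM, and 0.83 for BGN.

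Levels were compared between the genes by FPKM, as a mean over the 3 libraries of a group. In control the order was DCN (2243), LUM (323), BGN (101), CD44 (37.5), VCAN (4.25), HAS2 (1.65), PTX3 (1.25), TNFAIP6 (0.421), HAS3 (0.398), and HAS1 (0.262). Only the steps from DCN to LUM and from CD44 to VCAN had no overlap of library values between neighbours. In TL3h, PTX3 stood at 358 FPKM, between LUM (653) and BGN (188), and HAS2 (18.3) and HAS3 (17.1) were alike within their spread. In TL3d, DCN (627), LUM (485), and BGN (316) overlapped with each other, and VCAN (48.1) followed CD44 (127).

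The make-up of related genes within a library does not depend on the scaling between libraries. It was therefore described as a share of summed FPKM. HAS2 made up 73.4 ± 8.25% (SD, n = 3) of the summed synthases in control, 49.7 ± 16.2% in TL3h, 83.2 ± 12.9% in TL3d, and 88.2 ± 7.52% in TL14d. The TL3h libraries, at 32.5 to 64.6%, lay below all control libraries, at 65.3 to 81.8%, by a small margin. HAS3 took 39.3 ± 15.6% in TL3h against 14.9 ± 8.13% in control. HAS1 took 11.6 ± 3.35% in control, 11 ± 4.42% in TL3h, and 1.91 ± 0.399% in TL3d.

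**Figure D3:**
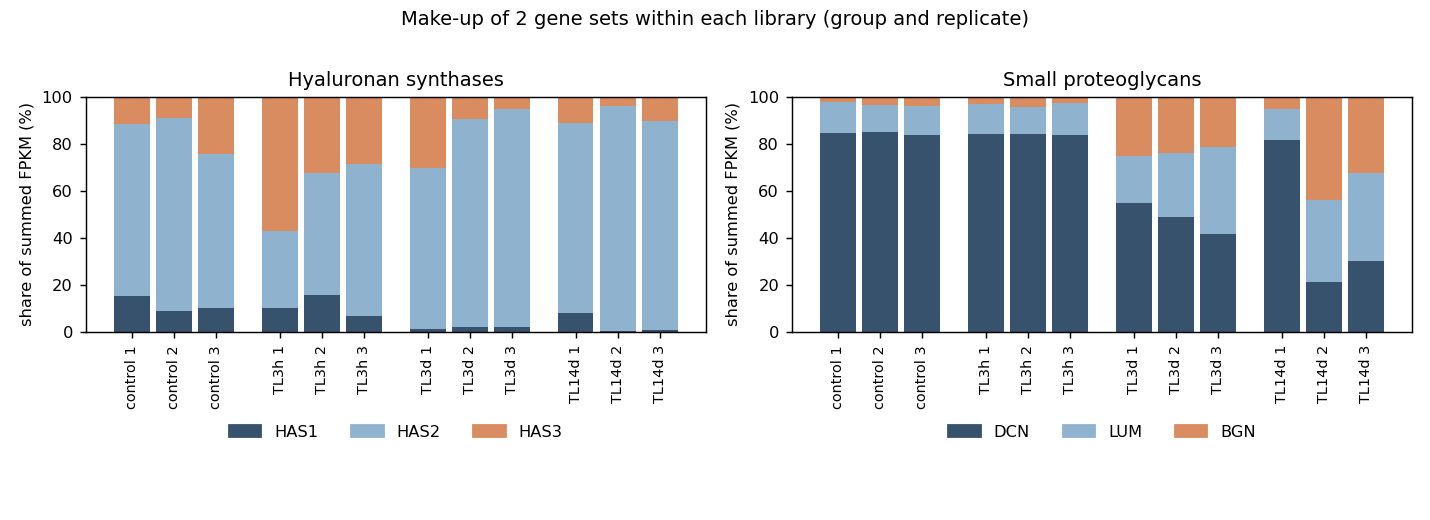
Share of each gene in the summed FPKM (vertical axis, %) of the 3 hyaluronan synthases (left) and of the 3 small proteoglycans (right), 1 bar for each library. DCN made up 83.5 to 85.1% of the small proteoglycans in all control and TL3h libraries, 41.9 to 54.8% in TL3d, and 81.5% in TL14d replicate 1 but 21.4 and 30.3% in replicates 2 and 3.

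DCN held the greatest share of the small proteoglycans in control and TL3h. It made up 84.4 ± 0.727% of the summed FPKM in control and 84.0 ± 0.372% in TL3h. It was 48.6 ± 6.49% in TL3d. BGN made up 3.31 ± 0.935% in control, 3.39 ± 0.980% in TL3h, with a range of 2.29 to 4.50% over these 6 libraries, and 23.6 ± 2.02% in TL3d. LUM made up 12.3 ± 0.998%, 12.7 ± 1.31%, and 27.8 ± 8.49%. For DCN and BGN the TL3d libraries lay outside the range of all control and TL3h libraries, as they did for LUM. An exact permutation test of 3 against 3 libraries cannot give a p under 0.10, and no test was run on these shares.

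The FPKM ratio of DCN to BGN was 36.9, 24.1, and 20.3 in control replicates 1, 2, and 3, and 27.9, 18.7, and 31.5 in TL3h. In TL3d it was 2.16, 2.04, and 1.95. The summed stroma markers of these 3 libraries ranged from 1256 to 61427 CPM, lowest in replicate 1 and highest in replicate 3. Over replicates 1, 2, and 3, DCN to LUM was 2.77, 1.84, and 1.14, and LUM to BGN was 0.781, 1.11, and 1.71. BGN to COL1A2 was 0.572, 0.263, and 0.174, and VCAN to COL1A2 was 0.211, 0.0685, and 0.0181. Whether stroma content had a part in these ratios was not tested. In TL14d the ratio of DCN to BGN was 15.3 in replicate 1, 0.489 in replicate 2, and 0.940 in replicate 3. The ratio of DCN to LUM fell from 6.34 to 7.52 in control to 1.14 to 2.77 in TL3d, and was 6.17, 0.619, and 0.806 in TL14d.

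The same genes were set against COL1A2, which encodes a chain of collagen type I and is 1 of the 10 stroma markers. The ratio of BGN to COL1A2 was 0.0231 to 0.0498 in control, 0.0227 to 0.0617 in TL3h, and 0.174 to 0.572 in TL3d. The ratio of LUM to COL1A2 was 0.0807 to 0.147 in control and 0.292 to 0.447 in TL3d. That of DCN to COL1A2 overlapped between control (0.607 to 1.01), TL3h (0.634 to 1.15), and TL3d (0.340 to 1.24). Against COL1A2, TL3d was therefore higher in BGN and LUM and not separated in DCN. The ratio of VCAN to COL1A2 was 0.000942 to 0.00204 in control, 0.00326 to 0.00622 in TL3h, and 0.0181 to 0.211 in TL3d, with no overlap between any of these groups.

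**Figure D4:**
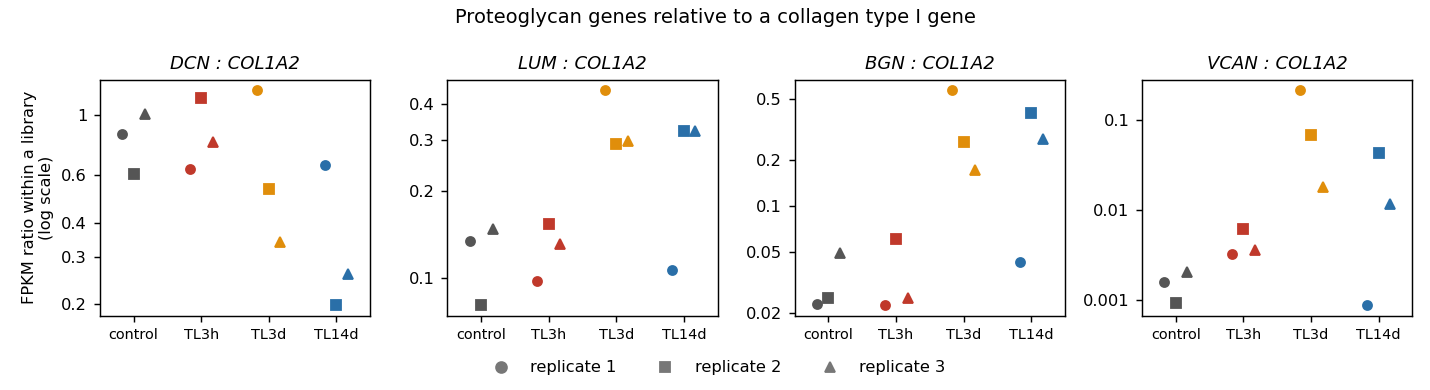
FPKM ratio of DCN, LUM, BGN, and VCAN to COL1A2 within each library (vertical log axis), by group, with the replicate number as the symbol. BGN, LUM, and VCAN of all TL3d libraries and of TL14d replicates 2 and 3 lay above all control libraries, and TL14d replicate 1 lay within or close to the control range.

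In TL14d replicates 2 and 3, DCN was 0.199 and 0.260 times COL1A2, under all control libraries, and it was 0.657 times in replicate 1. BGN was 0.408 and 0.277 times COL1A2 in replicates 2 and 3, and 0.0431 times in replicate 1.

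VCAN had 6 listed transcripts, of which 3 made up at least 10% of its summed FPKM in a group. A transcript of 8680 bases made up 46.3 ± 7.60% in control, 59.9 ± 4.89% in TL3h, and 69.0 ± 7.62% in TL3d. A shorter one of 3356 bases made up 40.9 ± 9.68%, 30.3 ± 4.41%, and 20.6 ± 7.26%. The longest, of 12133 bases, made up 9.82 ± 0.922% in control and 10.1 ± 1.79% in TL3d. The TL3d libraries did not overlap with control for the first transcript (61.0 to 76.2% against 37.8 to 52.5%) or for the shorter one (12.8 to 27% against 33.4 to 51.8%). In TL14d, the transcript of 8680 bases made up 29.7% in replicate 1, 62.6% in replicate 2, and 62.2% in replicate 3. Versican transcripts are known to differ in the exons that carry the chondroitin sulfate chains. Whether these listed models are the named versican isoforms was not examined.

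CD44 had 12 listed transcripts. One of 5379 bases made up 41.9 ± 6.45% in control, 25.7 ± 13.2% in TL3h, 25.4 ± 7.31% in TL3d, and 24.0 ± 4.85% in TL14d. One of 5127 bases made up 27.1 ± 2.35%, 31.8 ± 5.82%, 29.4 ± 13.1%, and 34.7 ± 8.66%. One of 4768 bases made up 14.8 ± 0.160% in control, 10.8 ± 1.22% in TL3h, 6.36 ± 2.32% in TL3d, and 14.1 ± 7.97% in TL14d, with no overlap between control, TL3h, and TL3d. One of 4240 bases made up 10.1 ± 4.91%, 24.6 ± 13.1%, 33.1 ± 22.0%, and 22.2 ± 12.5%. The range of the last in TL3d, 12.2 to 56.0%, overlapped with that of control, 5.69 to 15.4%. CD44 had fractional counts in 91.7% of its libraries, as had DCN and BGN, and how the authors' software divided reads between transcripts is not stated in the sources used here.

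HAS2 had a transcript of 3017 bases and one of 1659 bases. The shorter made up 0.00862, 0, and 10.6% in control replicates 1, 2, and 3, and 25.2 ± 3.76% in TL3h, 20.3 ± 6.03% in TL3d, and 21.2 ± 7.16% in TL14d. The operated libraries, at 13.1 to 29.1%, all lay above control, and the longer transcript held the rest. HAS3 had 3 transcripts of at least 10%, of 3027, 2879, and 1659 bases, which made up 41.9 ± 36.3%, 45.7 ± 50.6%, and 12.4 ± 21.5% in control and 30.5 ± 8.27%, 44.3 ± 8.24%, and 25.3 ± 0.200% in TL3h. In TL3d they made up 27.6 ± 15.5%, 47.2 ± 13.1%, and 25.2 ± 4.65%, and in TL14d 57.4 ± 51.6%, 18.1 ± 31.3%, and 24.6 ± 23.1%. In control and in TL14d the shares of HAS3 transcripts ranged from 0 to 100%, and they overlapped with those of TL3h and TL3d.

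DCN had a transcript of 1834 bases that made up 55.7 ± 4.27% in control, 70.5 ± 4.53% in TL3h, 68.9 ± 5.11% in TL3d, and 52.6 ± 2.43% in TL14d. One of 1828 bases made up 15.9 ± 3.27%, 16.9 ± 1.5%, 15.5 ± 5.28%, and 27.1 ± 11.3%. One of 1552 bases made up 28.4 ± 7.43%, 12.6 ± 4.03%, 15.6 ± 3.24%, and 20.3 ± 9.02%. The first lay higher, and the last lower, in all TL3h and TL3d libraries than in control. The transcript of 2043 bases of BGN made up 67.4 to 94.5% in all libraries. Another of 2111 bases made up 12 ± 14.1% in TL14d, with 28.2% in replicate 2, and 1.88 to 5.02% in the other 11 libraries. HAS1, TNFAIP6, PTX3, and LUM had 1 transcript that held the FPKM of the gene.

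Of 8 genes of the enzymes that make the sugar precursors of hyaluronan and other glycosaminoglycans, 5 were higher at 3 hours than in control and none was lower, with a median log2 fold change of 1.92. Of all genes tested, 45.4% passed, 23.2% with a rise. UGDH, which makes UDP-glucuronic acid, rose from 102 ± 15.8 CPM (SD, n = 3) to 1840 ± 288 CPM, a change of 4.17 ± 0.22 (adjusted p = 1.59e-05, edgeR). GFPT2, which catalyses the entry step of hexosamine synthesis, rose from 79.0 ± 25.4 to 1188 ± 591 CPM, a change of 3.91 ± 0.58 (adjusted p = 0.000525). The other 3 were UAP1 (3.47), GNPNAT1 (2.01), and PGM3 (1.83), which act later on the way to UDP-N-acetylglucosamine. The PGM3 call was lost without control replicates 1 or 2 or TL3h replicate 2 (adjusted p up to 0.0686, edgeR). At 3 days, where 17.6% of all genes passed, UGDH alone of the 8 did, at 181 ± 26.2 CPM (0.82 ± 0.19, adjusted p = 0.0218, edgeR). That call was lost without control replicate 1 (adjusted p = 0.0780) or 2 (adjusted p = 0.0836), and without TL3d replicate 1 (adjusted p = 0.0580) or 2 (adjusted p = 0.0629). UGDH was at 103 ± 16.3 CPM in TL14d.

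**Figure D5:**
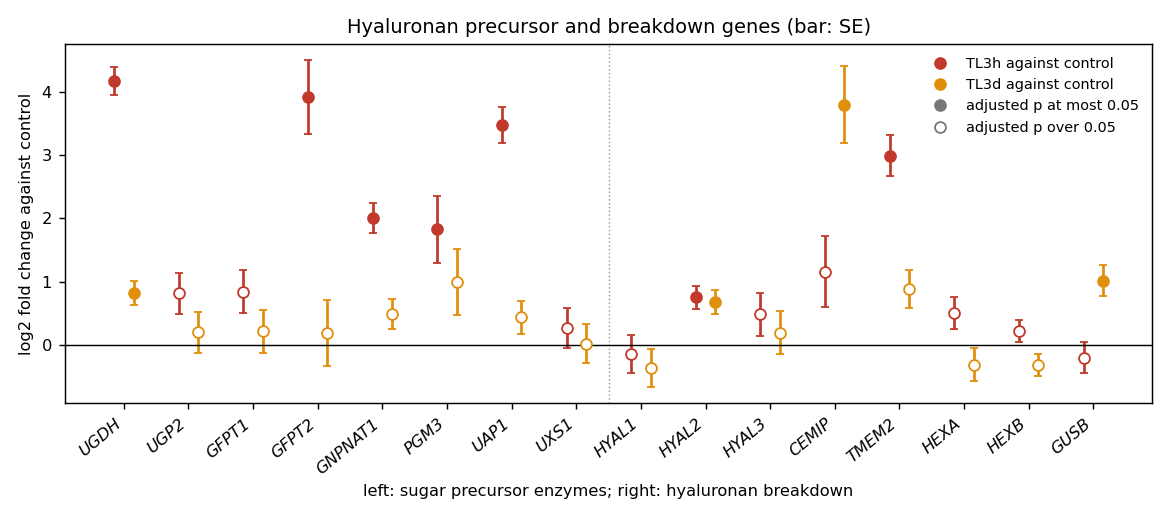
Log2 fold change against control, with the SE as bars, of 8 enzymes of the sugar precursors (left of the dotted line) and 8 genes of hyaluronan breakdown (right) at 3 hours and 3 days. At 3 hours 5 precursor genes passed the test (filled points), and at 3 days 1 did, while CEMIP passed at 3 days only.

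Of 8 genes of hyaluronan breakdown tested, 2 rose at 3 hours and 3 rose at 3 days, where 23.2% and 10.6% of all genes rose. At 3 hours, TMEM2, described as a hyaluronidase of the cell surface, rose from 74.1 ± 15.4 to 589 ± 52.4 CPM (2.99 ± 0.32, adjusted p = 0.000104, edgeR). HYAL2, a membrane-anchored hyaluronidase, rose by 0.75 ± 0.18 (adjusted p = 0.00779, edgeR), but not when libraries were scaled by their size only (0.25, adjusted p = 0.305). CEMIP, a secreted hyaluronan-binding protein needed for hyaluronan breakdown by fibroblasts, was at 1.26 ± 0.262 CPM in control, 2.81 ± 0.880 CPM in TL3h, and 17.5 ± 4.74 CPM in TL3d. It rose at 3 days against control (3.79 ± 0.61, adjusted p = 0.00993, edgeR) and between 3 hours and 3 days (2.64 ± 0.58, adjusted p = 0.00539). GUSB, a lysosomal glucuronidase, also rose at 3 days (1.02 ± 0.24, adjusted p = 0.0223, edgeR), and its call was lost without control replicates 1 or 2 or TL3d replicate 2 (adjusted p up to 0.0813).

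Of 9 other hyaluronan-binding genes and receptors, 1 fell at 3 hours, where 45.4% of all genes passed in either direction, and 3 rose at 3 days, where 10.6% of all genes rose. The gene that fell was HMMR, a hyaluronan-binding protein that also acts on the mitotic spindle of dividing cells. It was at 4.10 ± 1.30 CPM in control, 0.518 ± 0.0711 CPM in TL3h, and 10 ± 0.944 CPM in TL3d. The change was -2.98 ± 0.35 at 3 hours (adjusted p = 0.000148, edgeR) and 1.29 ± 0.31 at 3 days (adjusted p = 0.0242). The rise at 3 days was lost in 5 of the 12 fits that left out 1 library, namely any of the 3 control libraries or TL3d replicates 1 or 2 (adjusted p up to 0.0841). ACAN (aggrecan) was at 1, 1, and 0 counts in the control libraries and at 22, 21, and 242 counts in TL3d (adjusted p = 0.0377, edgeR). That call was lost in 9 of the 12 such fits, and with control at this depth no fold change is given.

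Of 6 ADAMTS proteases that cleave versican or related proteoglycans, 3 rose at 3 hours and none passed at 3 days, where 23.2% of all genes rose and 17.6% passed in turn. ADAMTS4 rose from 2.49 ± 1.51 to 276 ± 168 CPM (6.79 ± 0.91, adjusted p = 0.000299, edgeR), and ADAMTS9 from 39.1 ± 25.8 to 194 ± 63.9 CPM (2.31 ± 0.47, adjusted p = 0.00279). The ADAMTS9 rise was 2.95 without control replicate 3, and that of ADAMTS4 was 6.14 without TL3h replicate 2. ADAMTS1 was the other gene that rose (2.04, adjusted p = 0.0388, edgeR), a call that was lost with scaling by library size only and without control replicate 1 or 2, any TL3h library, TL3d replicate 2, or TL14d replicate 3 (adjusted p up to 0.124).

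Of 11 other small leucine-rich proteoglycans, 1 rose at 3 hours and none passed at 3 days, with a median log2 fold change of 1.04 and -1.47 in turn. Of all genes, 23.2% rose at 3 hours and 17.6% passed at 3 days. TSKU rose at 3 hours by 1.76 ± 0.53 (adjusted p = 0.0209, edgeR), a call that was lost with scaling by library size only (1.27, adjusted p = 0.0567) and without control replicates 1 or 2 or TL3h replicate 2 (adjusted p up to 0.107). Between 3 hours and 3 days, 3 fell and none rose, where 19% of all genes fell. OGN (osteoglycin) fell from 2812 ± 1476 to 63.8 ± 80.8 CPM (-5.46 ± 1.59, adjusted p = 0.0220, edgeR), and CHAD (chondroadherin) from 30.1 ± 24.6 to 1.56 ± 1.95 CPM (-4.27 ± 1.36, adjusted p = 0.0319). The OGN call was lost without TL3h replicate 2 (adjusted p = 0.0519) or TL3d replicate 2 (adjusted p = 0.0814), and it was -7.29 without TL3d replicate 3. The CHAD call was lost without TL3h replicate 2 (adjusted p = 0.0999), TL3d replicate 1 (adjusted p = 0.0813), or TL3d replicate 2 (adjusted p = 0.108), and it was -6.10 without TL3d replicate 3. Both genes are also among 5 markers of cornea and sclera stroma, whose sum lay between 3104 and 7188 CPM in TL3h and between 570 and 1046 CPM in TL3d. OGN alone gave most of that sum in TL3h (1745, 4496, and 2194 CPM), so the sum is no separate measure. ALDH1A1, the marker of the 5 that is not a small leucine-rich proteoglycan, overlapped between TL3h (509.6 to 549 CPM) and TL3d (414 to 550.0 CPM).

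Of 21 genes that build glycosaminoglycan chains, 6 rose and 2 fell at 3 hours, and 2 rose and 1 fell at 3 days. The shares of all genes that passed were 45.4% and 17.6%. CHSY1, a chondroitin synthase, rose by 1.72 ± 0.51 at 3 hours (adjusted p = 0.0185, edgeR), and CHST3, a chondroitin sulfotransferase, by 1.51 ± 0.39 (adjusted p = 0.0100). Both calls were lost with scaling by library size only (1.23, adjusted p = 0.0560, and 1.0, adjusted p = 0.0554), which moved the all-gene median at 3 hours from 0.02 to -0.47 (log2). The CHSY1 call was also lost without control replicates 1 or 2 or TL3h replicates 2 or 3 (adjusted p up to 0.0701). At 3 days, CHST3 rose by 1.38 ± 0.39 (adjusted p = 0.0380, edgeR) and FAM20B, a xylose kinase of the chain's linker, fell by 0.62 ± 0.17 (adjusted p = 0.0370). Single libraries ended both calls, in 9 and 7 of 12 fits. At 14 days, where 0% of all genes passed, none of the genes in these 6 lists did.

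Over the 12 libraries, the gene most alike to each of the 10 was found by Pearson's r of log2 CPM among 13253 genes, as a description. It was METTL12 for HAS1 (0.98), CD274 for HAS2 (0.98), CCRL2 for HAS3 (0.98), PSMC6 for CD44 (0.99), SKIL for TNFAIP6 (0.96), and ZYX for PTX3 (0.98). For the proteoglycans it was TMEM167A for VCAN (0.96), SERPINF1 for DCN (0.99), GPX7 for LUM (0.98), and ADAMTS7 for BGN (0.98). The next were SOCS1, LOC100348124, NOCT, KPNA2, INHBA, PTGIR, CNN3, ITGBL1, FAP, and CRTAP, in the same order. Among the 10 genes, HAS2 was most alike to CD44 (0.97) and DCN to LUM (0.74), while r between DCN and VCAN was 0.02. All points share their libraries and the time course.

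By the authors' annotation of OryCun2.0, HAS2 lies on chromosome 3 (137491970 to 137519857), HAS3 on chromosome 5 (24516758 to 24529437), CD44 on chromosome 1 (174450963 to 174543675), and TNFAIP6 on chromosome 7 (90349588 to 90368345). PTX3 lies on chromosome 14 (51841657 to 51848103) and VCAN on chromosome 11 (3706347 to 3813549). DCN (70357836 to 70397995) and LUM (70315437 to 70323221) are neighbours on the same strand of chromosome 4. HAS1 and BGN are on unplaced sequence.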

How the data were processed

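Conjunctival RNA (stranded mRNA libraries, 150 bp paired-end reads) was measured in 12 libraries, and samples were grouped by their labels. Per the submitters' processing notes, reads were mapped to OryCun2.0 with STAR 2.6.0c, and the authors used GeneData Profiler Genome for values per gene and transcript. The authors deposited estimated counts, not divided by library size, of which 23.4% were fractions, and FPKM values, divided by transcript length and depth. Estimated counts were rounded. FPKM served only for shares, ratios, transcripts, and the order of genes, without a test.

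After filterByExpr (minimum count 10, minimum total 15), all libraries entered 1 quasi-likelihood fit in edgeR 4.0.16 (R 4.3.3) with TMM and without covariates, as the study names edgeR. On simulated data for TL3h against control, the fit recovered 117 of 200 changed genes, and 82 of the 100 changed by 8-fold or more. It falsely called 7 genes. A gene that did not pass may therefore still differ. The SE is the absolute log2 fold change over the square root of F. The lowest chi-square per gene between libraries of a group was 76.0, so none were copies. The TMM factors were 0.768 to 0.783 in TL3h and 1.03 to 1.13 elsewhere.

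The 10 genes and all lists were chosen with earlier results of these data known, so their directions are not independent evidence. PTX3 and TNFAIP6 are also in a list that the study ranked by change after surgery. Named from each list were the 2 called genes with the largest change and a mean of at least 1 CPM, the 2 genes most alike to each of the 10, and transcripts with at least 10% of a gene's FPKM in a group. HYAL2 and TSKU were named by this rule, and UAP1, GNPNAT1, PGM3, and ADAMTS1 after their values were seen.

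Alternatives were DESeq2 1.42.0 (its size factors and its test), library size only, no filter, the likelihood-ratio test, limma-trend (limma 3.58.1), only the groups compared, a replicate block, and leaving out each library. Leaving out control replicate 3 and TL14d replicate 1 together was chosen after seeing the data.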

Additional observations from a re-analysis of the deposited data

Results flagged for a closer look

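The change against control differed between time points for 4 of the 10 genes between 3 hours and 3 days, by a test of the difference itself (TL3d against TL3h, edgeR), where 37.3% of all genes passed. The differences were -4.12 for HAS1, -3.00 for HAS3, -4.63 for PTX3, and -3.28 for DCN. For PTX3 the change also differed between 3 days and 14 days, by -3.63 (TL14d against TL3d), where 2.24% of all genes passed. These comparisons share their control libraries, which cancel in the difference. The calls of HAS3, DCN, and the second one of PTX3 were lost in some fits that left out 1 library. The groups held 3 libraries each, which is too few to test a single library as an outlier.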

How the results depend on the processing

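Of 1049 refitted log2 fold changes of the 10 genes, 952 kept their direction and their side of the threshold, 49 newly passed, 30 no longer passed, and 18 changed sign. None of those that changed sign had passed in any setting. The count of genes past the threshold at 3 hours, 6, stayed within 1.5 times in all settings. At 3 days against control (3 genes) it was 6 with DESeq2, 6 with the likelihood-ratio test, 5 with only the groups compared, and 6 without both control replicate 3 and TL14d replicate 1. It ranged from 0 to 6 when 1 library was left out. The calls over all genes moved too, from 2608 to 4471, 3154, 3263, and 3859 in these settings and to between 359 and 3778 with 1 library left out. At 14 days (0 genes) it was 2 with DESeq2, 1 with the likelihood-ratio test, 4 without both libraries, and 0 to 3 with 1 library left out, where 3 was found without TL14d replicate 1. Over all genes the calls were 0, then 367, 216, 999, and 0 to 716 in turn. For TL3d against TL3h (4 genes) the range with 1 library left out was 2 to 5, and over all genes (5537) it was 3954 to 6231. For TL14d against TL3d (1 gene) it was 3 with DESeq2, 2 with the likelihood-ratio test, 0 with only the groups compared, and 0 to 1 with 1 library left out, against 332 over all genes and then 1850, 1106, 15, and 0 to 584. The cause was not tested. Sign changes were found for LUM at 3 days (-0.20 with limma-trend), TNFAIP6 between 3 and 14 days (-0.65 with limma-trend), DCN between 3 and 14 days (-0.22 without both libraries), and BGN between 3 hours and 3 days (-0.29 with limma-trend). With 1 library left out, the range was -1.34 to 1.63 for LUM at 3 days, -0.023 to 1.62 for HAS3, -0.26 to 1.70 for PTX3, and -0.65 to 1.74 for LUM at 14 days, all against control. It was -1.07 to 0.98 for BGN between 3 hours and 3 days. Between 3 and 14 days it was -1.42 to 1.75 for TNFAIP6, -0.25 to 1.55 for DCN, -1.22 to 2.01 for LUM, and -0.79 to 1.87 for BGN.

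The correlations between libraries of the same number do not settle whether the replicate numbers pair the samples. Of these, 8 of 18 were over 0.1 (range -0.16 to 0.53) and 8 of 18 were the best match. Pairs of 2 operated groups cannot be fellow eyes, as only right eyes were operated on. Between control and operated libraries of replicates 1, 2, and 3, they were 0.30, -0.15, and -0.15 for TL3h. They were 0.53, -0.14, and 0.37 for TL3d, and 0.25, 0.01, and 0.45 for TL14d. With the replicate number as a block, the counts were 9, 4, and 0 against control at the 3 times, 5 for TL3d against TL3h, and 1 for TL14d against TL3d, and BGN between 3 hours and 3 days was -0.73. At 3 hours the genes that newly passed were VCAN (3.42, adjusted p = 0.0101), LUM (2.15, adjusted p = 0.0364), and BGN (2.29, adjusted p = 0.0256), where 6946 genes passed in all. VCAN also newly passed at 3 days (3.62, adjusted p = 0.0255), and TNFAIP6 between 3 hours and 3 days (-3.79, adjusted p = 0.0394). HAS1 at 14 days and ACAN in control rest on 5 counts or fewer in a library, which limits their precision.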
